A study of Glycine max with 48 samples.

Results

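Water deficit was compared with control in the sepals of soybean flowers (Glycine max, cultivar Magellan). The comparison sets 3 libraries from sepals under water deficit against 3 from control sepals. These are 6 of the 48 RNA sequencing libraries of the study, chosen by their labels alone. The study sampled 4 organs (sepal, anther, ovary and stigma) under 4 treatments, with 3 libraries in each of 16 groups, and deposited its values as FPKM, in which the fragments assigned to a gene are divided by its length and by the library total. Sepals under water deficit came from plants kept at a day temperature of 28 °C and a night temperature of 24 °C and given 30% of the water available for transpiration. Control sepals came from plants at those temperatures given 100%. Sepals under combined stress (38 °C days, 28 °C nights, 30% water) and sepals under heat alone (the same temperatures, 100% water) gave the other 6 sepal libraries. These also entered the fit, through the filter and the estimate of the spread of each gene. All plants were inoculated with Bradyrhizobium japonicum, grown under 12 hours of light, and assigned to a treatment when their first flower opened, after 16 to 18 days. Each library pooled 10 to 15 flowers of 8 to 10 plants. The treatments stood in 4 growth chambers side by side, and which chamber held which is not stated. If each stood alone in 1 chamber, the effects of chamber and treatment cannot be told apart.

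Sepals are the outermost organs of the flower, green and leaf-like, and enclose the bud before it opens. Plants short of water accumulate abscisic acid, a hormone that closes stomata and, through kinases and transcription factors, changes the transcription of many genes. Sepals carry stomata and lose water, whereas anthers and the pistil (ovary and stigma) hold the reproductive tissues.

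Of 57147 identifiers, 0 matched the available reference gene table, and the deposited files pair none with a name, a function or a position. Genes are therefore given by identifier without a role, and 31 lists of pathways and cell types, which needed gene descriptions, could not be built. Read counts were not analysed here and the absolute depth is unknown. Steps between low FPKM values gave relative depths of 1.04 to 1.12 for the water deficit libraries and 1.01 to 1.30 for the control libraries. Libraries correlated across genes at 0.952 to 0.959 (Pearson's r on the log2 scale) within water deficit and at 0.918 to 0.954 within control. Control replicate 3 stood apart through genes of other organs, described below. Several results, the counts of called genes included, are given with and without it. The comparisons of heat and combined stress with control, and the counts in other organs, are given with it only. Of 19199 genes with a mean of at least 5 FPKM over the 6 libraries, 189 were listed at 0 in at least 1 of them, so a value of 0 is described as listed at 0.

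Few sepal genes passed the threshold under water deficit, whereas 4183 had an unadjusted p under 0.05 in limma (1686 higher, 2497 lower). Among 33179 genes tested, 28 were higher under water deficit (0.0844% of those tested) and 41 were lower (0.124%), by limma with Benjamini-Hochberg adjustment (adjusted p under 0.05). The fit held all 12 sepal libraries, and with only the 6 compared libraries in it 6 genes were called. The log2 fold changes, water deficit over control on log2(FPKM + 1), had a median of 0.94 among the higher genes and -1.03 among the lower genes, beside -0.04 over all genes tested. They ranged between 0.46 and 1.59 for the higher genes and between -0.51 and -2.20 for the lower genes. A change of at least 2-fold on this scale, a log2 value of 1, was reached by 12 of the 28 higher genes and 21 of the 41 lower genes, against 0.738% of all tested genes for a rise and 1.09% for a fall. GLYMA_18G101800, which gave the value of 1.59, averaged 2.38 FPKM under water deficit and 0.123 FPKM in control. It passed the filter of 1 FPKM through the water deficit group alone. Its libraries at high temperature, at or near 0, add almost no spread. GLYMA_07G133900, among the lower genes, passed through the control group alone (2.05 FPKM, under 1 FPKM in the other groups). Both were named after their values were seen. The 3 water deficit libraries lay on 1 side of the 3 control libraries for all 69 called genes, a separation also seen for 16.7% of all genes tested. The counts rested on single libraries: they were 3 higher and 9 lower without water deficit replicate 1, 7 and 12 without replicate 2 and 13 and 29 without replicate 3. They were 119 and 175 without control replicate 1, 2 and 13 without replicate 2 and 14 and 33 without replicate 3. None of the 337 tested identifiers of the ENSRNA type was called.

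GLYMA_16G162400 had the largest fall under the naming rule, which required at least 5 FPKM in the higher group. It was at 2.18, 1.42 and 1.87 FPKM in water deficit sepals, against 13.2, 7.40 and 12.9 FPKM in control sepals (limma log2 fold change -2.08 with SE 0.22, adjusted p = 0.0063). Every water deficit library was below every control library, and control replicate 2 was the lowest of its group. In the 6 hot libraries it was at 3.68, 3.12 and 3.06 FPKM under combined stress, against 23.6, 17.1 and 13.8 FPKM under heat (limma log2 fold change -2.13 with SE 0.22, adjusted p = 0.000616). The low-water libraries were again below the well-watered ones, with no overlap.

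GLYMA_06G185300, the other gene named for its fall, was more abundant. It was at 34.1, 63.2 and 82.4 FPKM in water deficit sepals, against 205, 176 and 188 FPKM in control sepals (limma log2 fold change -1.73 with SE 0.28, adjusted p = 0.0486). The groups did not overlap, and the water deficit libraries varied more among themselves than the control libraries. Its fall under combined stress against heat was of a similar size, 36.3 ± 6.79 FPKM against 148 ± 40.9 FPKM (SD, n = 3 each; limma log2 fold change -1.98 with SE 0.28, adjusted p = 0.00469). Without control replicate 3 the water deficit value was -1.74 and the limma adjusted p was 0.105. The call was also lost on leaving out control replicate 1 (adjusted p = 0.0571) or 2 (0.138), or water deficit replicate 1 (0.067) or 2 (0.11), all in limma.

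GLYMA_10G236000 and GLYMA_15G073100 were the genes named for their rise. GLYMA_10G236000 was at 7.74, 6.22 and 5.05 FPKM in water deficit sepals, against 2.31, 1.77 and 0.80 FPKM in control sepals (limma log2 fold change 1.51 with SE 0.25, adjusted p = 0.0424). GLYMA_15G073100 was at 6.67, 5.02 and 5.73 FPKM in water deficit sepals, against 2.41, 1.53 and 0.81 FPKM in control sepals (limma log2 fold change 1.44 with SE 0.21, adjusted p = 0.0266). In both genes all water deficit libraries were above all control libraries, and control replicate 3 was the lowest control. Leaving that library out lowered the log2 fold changes to 1.26 for GLYMA_10G236000 (limma adjusted p = 0.0734) and to 1.21 for GLYMA_15G073100 (limma adjusted p = 0.0457). GLYMA_10G236000 also lost its call without control replicate 2 (limma adjusted p = 0.106) and without water deficit replicate 1, 2 or 3 (0.146, 0.119 and 0.0659). GLYMA_15G073100 lost it without control replicate 2 (limma adjusted p = 0.0879) and without water deficit replicate 1, 2 or 3 (0.113, 0.0635 and 0.0672).

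At high temperature GLYMA_15G073100 was at 6.40 ± 1.22 FPKM under combined stress and 2.48 ± 0.395 FPKM under heat (SD, n = 3 each; log2 fold change 1.08, limma adjusted p = 0.0166). GLYMA_10G236000 was at 2.30 ± 0.864 FPKM under combined stress and 0.714 ± 0.128 FPKM under heat (log2 fold change 0.91, limma adjusted p = 0.0746). The libraries did not overlap in either gene, but the difference of GLYMA_10G236000 did not pass the threshold.

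**Figure D1:**
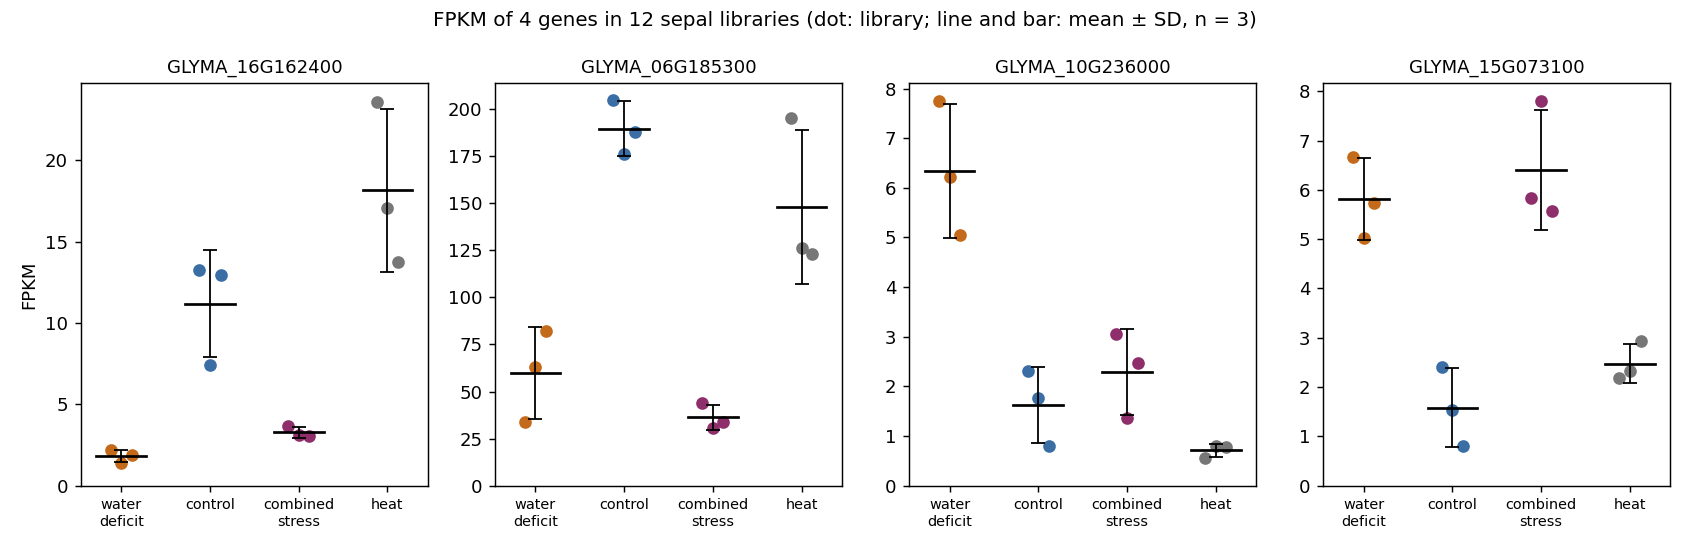
FPKM of the 2 genes named for a fall and the 2 named for a rise, in the 12 sepal libraries (dots), with the mean and SD of each group of 3 on linear axes that start at 0. The water deficit dots and the control dots do not overlap in any panel, and the combined stress dots lie on the same side of the heat dots.

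The called genes ranged from low to high abundance. The mean of the higher group was at least 50 FPKM for 11 of the 28 higher genes and 14 of the 41 lower genes, between 5 and 50 FPKM for 12 and 24, and under 5 FPKM for 5 and 3. The summed FPKM of the 28 higher genes averaged 17554 in water deficit libraries and 11342 in control libraries, and that of the 41 lower genes 1142 and 2221. Most of the sum of the higher genes came from GLYMA_01G132500, chosen here after its values were seen because it was the most abundant gene of the control sepals. GLYMA_01G132500 was at 15768, 16051 and 15304 FPKM in water deficit sepals, against 11479, 9756 and 9517 FPKM in control sepals (limma log2 fold change 0.62 with SE 0.11, adjusted p = 0.0486). All water deficit libraries were above all control libraries, and the limma adjusted p was 0.0894 without control replicate 3. The call of GLYMA_01G132500 was also lost without control replicate 2 (limma adjusted p = 0.167) and without water deficit replicate 1, 2 or 3 (0.146, 0.13 and 0.106). Under combined stress it averaged 18075 ± 1003 FPKM and under heat 10276 ± 1253 FPKM (SD, n = 3 each; log2 fold change 0.82, limma adjusted p = 0.00212).

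The share of genes called depended on abundance, as did the spread. Of 1099 tested genes with a mean under 1 FPKM in both groups 0 were called, and among genes with a higher-group mean of 1 to 5 FPKM 0.0672% were, beside 0.192% at 5 to 20 FPKM, 0.419% at 20 to 100 FPKM and 1.22% at 100 FPKM or more, while the median SE was 0.20, 0.14, 0.12 and 0.12 in these classes. Among the 903 genes at 100 FPKM or more, 19.5% had all 3 water deficit libraries above the 3 control libraries and 9.41% had them below. The corresponding shares over all tested genes were 6.32% and 10.4%. Without control replicate 3, where separation is easier, they were 25.2% and 14% at 100 FPKM or more, beside 15.2% and 18.6% at 20 to 100 FPKM. The 10 genes with the highest control means made up 7.05%, 7.41% and 7.20% of summed FPKM in the water deficit libraries, against 6.50%, 6.25% and 5.27% in the control libraries. In 6 of these 10 all water deficit libraries were above all control libraries, in 0 were they below, and 1 was called.

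A few genes held their call whichever library was left out. All 69 genes kept their direction when each of the 6 libraries was omitted in turn, and 10 of them, 2 higher and 8 lower, were called in each of the 6 fits. The 2 higher genes, named for this after their values were seen, were GLYMA_10G224300 and GLYMA_12G154300. GLYMA_10G224300 was at 20.6, 20.6 and 20.4 FPKM in water deficit sepals, against 8.70, 7.17 and 7.22 FPKM in control sepals (limma log2 fold change 1.31 with SE 0.13, adjusted p = 0.00388). The water deficit libraries of this gene were close together and all above every control library. GLYMA_12G154300 was at 208, 245 and 216 FPKM in water deficit sepals, against 127, 95.2 and 109 FPKM in control sepals (limma log2 fold change 1.01 with SE 0.12, adjusted p = 0.00854). At high temperature, GLYMA_10G224300 was again higher, at 8.38 ± 1.67 FPKM under combined stress and 3.33 ± 0.176 FPKM under heat (SD, n = 3 each; log2 fold change 1.10, limma adjusted p = 0.00109). GLYMA_12G154300 averaged 393 ± 29.3 FPKM under combined stress and 301 ± 32.4 FPKM under heat, a difference of 0.39 on the log2 scale that did not pass the threshold (limma adjusted p = 0.128). The 8 lower genes had log2 fold changes between -1.29 and -2.20. Under combined stress against heat 6 of the 8 were also called lower, beside 2.53% of all genes tested. Both comparisons share 1 estimate of the spread of each gene, so these calls are not independent. GLYMA_13G086600, among these 8 and named after its values were seen, was listed at 0 in all 3 water deficit libraries and at 2.80, 6.08 and 2.60 FPKM in the control libraries. It was also listed at 0 in all 6 libraries of combined stress and heat, so no water response could be measured at high temperature. GLYMA_13G086600 thus passed the filter through the control group alone, and libraries listed at 0 add no spread to the estimate behind its call. Its control libraries varied widely in stigmas (2.45, 0 and 14.7 FPKM) and in ovaries (0, 2.77 and 5.53 FPKM).

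**Figure D2:**
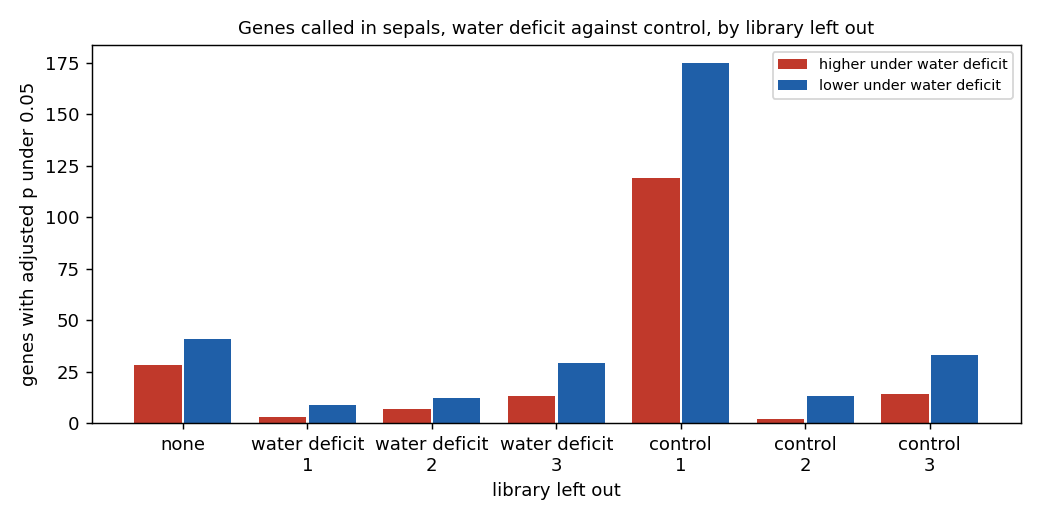
Number of genes with a limma adjusted p under 0.05 (vertical axis), higher (red) or lower (blue) under water deficit, with no library left out and with each of the 6 left out in turn. The higher count is lowest without control replicate 2 (2) and the lower count without water deficit replicate 1 (9), and both are highest without control replicate 1 (119 higher, 175 lower).

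Control replicate 3 was examined through genes typical of other organs. Anther-enriched genes were those with at least 5 FPKM in anthers and at least 8-fold more than in each other organ, which gave 1764 genes. Pistil-enriched genes (439) met this in both ovary and stigma against sepal and anther, and sepal-enriched genes (704) in sepals against the rest. The sepal means behind these lists came from the heat and combined stress libraries, so the 6 libraries compared here had no part in the choice. Anther-enriched genes made up 0.436%, 0.491% and 0.772% of summed FPKM in the water deficit libraries, against 0.393%, 0.594% and 2.36% in the control libraries. The groups overlapped, and control replicate 3 was the highest of the 6. Pistil-enriched genes made up 0.394%, 0.415% and 0.290% in the water deficit libraries, against 0.290%, 0.717% and 1.18% in the control libraries. Control replicate 3 was again the highest, and replicate 2 followed it. Sepal-enriched genes made up 6.54%, 6.73% and 6.94% in the water deficit libraries, against 7.33%, 6.41% and 5.61% in the control libraries, where replicate 3 was the lowest. A two-sided exact permutation test gave p = 0.7 for anther, 0.3 for pistil and 0.7 for sepal, but the smallest p that 3 against 3 allows is 0.1, so no share could have passed the threshold. In such bulk samples, fewer cells of a type and less RNA per cell cannot be told apart. All 6 libraries held more FPKM from sepal-enriched genes than from both other lists together, and 61 anther-enriched and 13 pistil-enriched genes were listed at 0 in all 6.

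**Figure D3:**
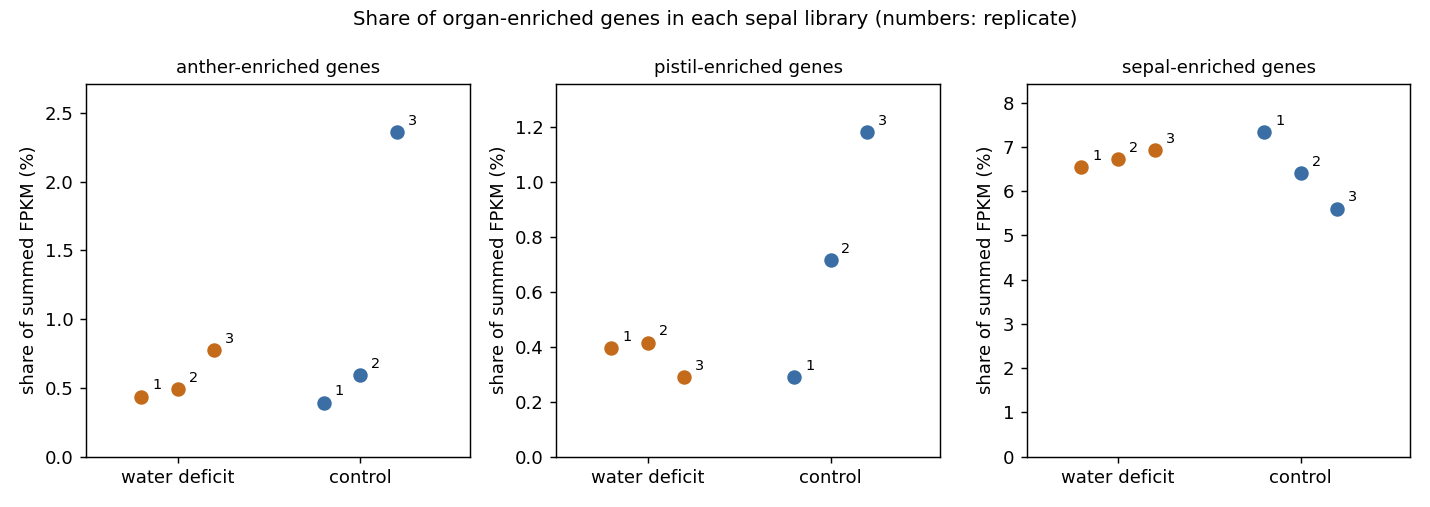
Share of summed FPKM (%) from anther-enriched, pistil-enriched and sepal-enriched genes in each water deficit and control sepal library (dots, numbered by replicate), on axes that start at 0. Control replicate 3 has the highest anther-enriched share (2.36%) and pistil-enriched share (1.18%) and the lowest sepal-enriched share (5.61%).

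The called genes were also counted within these lists. Of 933 tested anther-enriched genes 0 were called, and of 345 tested pistil-enriched genes 2 were lower and 0 higher, or 0.58%. Of 704 sepal-enriched genes 6 were higher and 9 lower, or 2.13%, beside 0.208% of all genes tested. The lists differ in abundance by definition, with at least 5 FPKM in sepals for sepal-enriched genes and lower sepal levels for the others. The share called rose with abundance, so these shares are not on an equal footing, and their difference was not tested. The median log2 fold change was -0.46 for anther-enriched genes and 0.09 without control replicate 3, and for pistil-enriched genes -0.47 and -0.19 without it. For sepal-enriched genes it was 0.08 and -0.02 without that library, and for all genes -0.04 and -0.03. The 2 pistil-enriched genes that fell, named after their values were seen, were GLYMA_01G243400 and GLYMA_17G180400. GLYMA_01G243400 was at 31.4, 35.8 and 35.1 FPKM in water deficit sepals, against 64.0, 58.8 and 92.6 FPKM in control sepals (limma log2 fold change -1.03 with SE 0.16, adjusted p = 0.0316). It was well separated, with control replicate 3 the highest, and without that library the value was -0.83 (limma adjusted p = 0.0457). GLYMA_17G180400 was at 2.34, 1.87 and 2.63 FPKM in water deficit sepals, against 4.06, 5.38 and 6.25 FPKM in control sepals, and its limma adjusted p was 0.0486 with control replicate 3 and 0.105 without it. Leaving out control replicate 2 or any water deficit library also ended both calls, with limma adjusted p between 0.0509 and 0.135 for GLYMA_01G243400 and between 0.086 and 0.162 for GLYMA_17G180400. The part of other organs' material in these falls was not tested.

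Without control replicate 3, 14 genes were higher and 33 lower. Of these, 9 were among the 28 higher genes and 22 among the 41 lower genes of the full comparison. The medians of the 28 and the 41 were 0.87 and -1.003 without that library, beside 0.94 and -1.03 with it. Rescaling the libraries by median of ratios gave 31 higher and 29 lower, so 51.7% of calls were higher, beside 40.6% on the deposited FPKM. Leaving anther- and pistil-enriched genes out and rescaling gave 36 higher and 84 lower, or 30% higher. The excess of lower over higher calls therefore depended on the scaling, while all 69 genes kept their direction under median of ratios and 67 under the other rescaling, which left out the 2 pistil-enriched genes.

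Low water was also compared at high temperature, as combined stress against heat. The fold changes of the 2 comparisons come from different libraries, but all 12 libraries share 1 estimate of the spread of each gene, so the hot libraries had a part in choosing the 69 genes and the calls of the 2 comparisons are not independent. Of the 41 lower genes 39 were lower there too, 38 with no overlap between groups, and 30 were called lower. Over all genes tested, 2.53% were called lower and 15.1% were lower without overlap in that comparison. Of the 28 higher genes 25 were higher, 18 without overlap, and 10 were called higher, beside 0.82% called and 8.16% without overlap over all genes. None of the 69 was called in the opposite direction. GLYMA_18G101800 and GLYMA_13G086600 were at or near 0 in all 6 hot libraries, so neither could show a water response there, and both stay in these counts. The median log2 fold change of the 41 lower genes was -0.93 at high temperature and -1.03 at control temperature, and that of the 28 higher genes 0.37 and 0.94, beside -0.03 and -0.04 over all genes. The change was larger at high temperature for 18 of the 41 and 3 of the 28. The 69 were selected on their values at control temperature, and the difference in size was not tested for the lists. Of the 47 genes called without control replicate 3, 40 had the same direction at high temperature and 24 were called.

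Genes chosen at high temperature gave the converse view. Of 272 genes called higher in combined stress than in heat, 236 (86.8%) were higher under water deficit than in control, and of 839 called lower 741 (88.3%) were lower. Over all tested genes, 41.3% were higher and 58.3% lower under water deficit. Of the 272 and the 839, 51.1% and 49.1% were separated without overlap in the same direction, beside 6.32% and 10.4% of all genes. Their median log2 fold changes under water deficit were 0.32 and -0.30, and 0.30 and -0.31 without control replicate 3, so most of these differences were small at control temperature. Across the 33179 genes the log2 fold changes at the 2 temperatures correlated at r = 0.318 (Spearman's rho 0.343), and across 19058 genes with a mean of at least 5 FPKM at r = 0.395 (rho 0.424). This is a description across genes, which are not independent replicates.

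**Figure D4:**
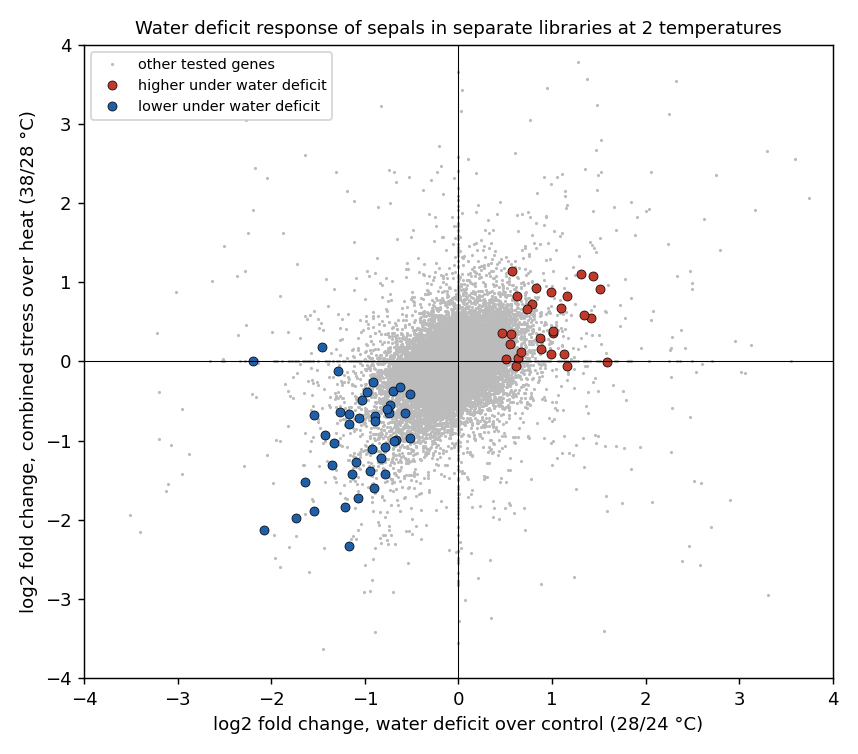
Log2 fold change on log2(FPKM + 1) of each tested gene under water deficit over control (horizontal axis) and under combined stress over heat (vertical axis), with the 28 higher genes in red and the 41 lower genes in blue (12 genes lie outside the plotted range). Of the blue points 39 lie below 0 on the vertical axis, and of the red points 25 lie above it.

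The difference between the responses at the 2 temperatures was tested as an interaction. It passed the threshold for 14 of 33179 genes (0.0422%), 3 more positive at high temperature (0.00904%) and 11 more negative (0.0332%), and none of the 69 genes was among them. An unadjusted p under 0.05 in limma was reached by 2377 of the 33179 genes, 16 of the 28 and 16 of the 41 included. The values at control temperature that chose the 69 genes also enter the interaction. The choice itself favours a difference, so the 16 and 16 do not show a response that depends on temperature. For GLYMA_16G162400 the response at high temperature minus that at control temperature was -0.05 (SE 0.31, limma adjusted p = 0.989), and for GLYMA_15G073100 it was -0.36 (SE 0.30, adjusted p = 0.878).

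Heat and combined stress were each set beside the same control libraries, so their values are given side by side only. Of the 28 genes higher under water deficit, limma called 20 higher and 1 lower under combined stress, and 11 higher and 2 lower under heat. Of the 41 lower genes it called 39 lower and 0 higher under combined stress, and 16 lower and 2 higher under heat. Over all genes, 7.19% were called higher and 16.9% lower under combined stress, and 4.11% and 7.19% under heat. Combined stress gave the lowest mean of the 4 treatments for 27 of the 41 lower genes and the highest for 10 of the 28 higher genes. Water deficit alone gave the lowest for 14 of the 41 and the highest for 17 of the 28, by values that also chose the genes.

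The 69 genes were next followed in the other organs, each fitted on its own 12 libraries. Differences between organs were not tested, because the tables were normalised separately. Of the 69 genes 60 were expressed enough to be tested in the stigma, 54 in the ovary, 42 in the anther, and 6 in none of these. In the stigma 32 of 36 lower genes and 18 of 24 higher genes had the direction of the sepal (43% and 56.5% of all genes tested there). The same held for 29 of 34 and 12 of 20 in the ovary (50.7% and 48.8%) and 22 of 25 and 13 of 17 in the anther (49% and 50.4%). The medians were smaller than in the sepal, at -0.34 and 0.17 in the stigma, -0.35 and 0.10 in ovaries, and -0.33 and 0.24 in anthers, beside 0.03, -0.0029 and 0.0020 over all genes tested in the stigma, ovary and anther. The libraries did not overlap, in the direction of the sepal, for 14 of 34 lower and 5 of 20 higher genes in the ovary (7.59% and 6.49% of all genes tested there), 16 of 36 and 6 of 24 in the stigma (5.21% and 7.67%) and 7 of 25 and 2 of 17 in the anther (3.38% and 3.19%). Of 37 genes tested in all 4 organs (23 lower and 14 higher in sepals), 16 were lower and 7 higher in every one. The choice of genes fixed their sepal direction, and no share over all genes was computed for this count.

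Few of them passed the threshold elsewhere. In the ovary 3 genes were called in the direction of the sepal, 1 higher and 2 lower, where the calls made up 0.069% of tested genes for a rise and 0.165% for a fall. In the stigma 1 was called higher and 1 lower, where 0.0565% and 0.107% of tested genes were called, and in the anther none was, where limma called 0.00351% of genes. These genes are named after their values were seen. GLYMA_04G014000, a sepal-enriched gene, was called higher in 3 organs. It was at 136, 103 and 124 FPKM in water deficit sepals, against 68.3, 57.2 and 54.6 FPKM in control sepals (limma log2 fold change 0.99 with SE 0.13, adjusted p = 0.014), and the groups did not overlap. In stigmas it was at 15.6 ± 1.74 FPKM under water deficit and 5.88 ± 0.627 FPKM in control (SD, n = 3 each; log2 fold change 1.27, limma adjusted p = 0.0294). In the ovary its log2 fold change was 1.71, and in the anther it was below the level tested. Its sepal call was lost without control replicate 2 (limma adjusted p = 0.0699) and without water deficit replicate 1 (0.0684).

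GLYMA_06G185300, described above for its fall in sepals, was called lower in the ovary as well, at 334 ± 22.3 FPKM under water deficit and 550 ± 18.7 FPKM in control (SD, n = 3 each; log2 fold change -0.72, limma adjusted p = 0.0403). GLYMA_19G102700 was at 34.5, 27.8 and 39.4 FPKM in water deficit sepals, against 80.6, 68.3 and 81.5 FPKM in control sepals (limma log2 fold change -1.17 with SE 0.15, adjusted p = 0.014). The groups were clearly apart, and the fall was larger under combined stress against heat (log2 fold change -2.33), although the interaction did not pass the threshold (limma adjusted p = 0.116). In the ovary it was at 0.856, 0.139 and 0.778 FPKM under water deficit and at 7.99, 2.53 and 13.5 FPKM in control (log2 fold change -2.31, limma adjusted p = 0.043). GLYMA_09G047200 was at 26.4, 36.0 and 38.2 FPKM in water deficit sepals, against 78.4, 72.9 and 62.2 FPKM in control sepals (limma log2 fold change -1.07 with SE 0.15, adjusted p = 0.02). In stigmas it was called lower at a far lower level, 1.94 ± 0.189 FPKM under water deficit and 5.23 ± 0.655 FPKM in control (SD, n = 3 each; log2 fold change -1.08, limma adjusted p = 0.015). Without water deficit replicate 1 or 2 both GLYMA_19G102700 (limma adjusted p = 0.067 and 0.0576) and GLYMA_09G047200 (0.067 and 0.0576) lost their sepal calls, and GLYMA_09G047200 did so without control replicate 2 (0.0872). Of the calls in other organs, 1 of 3 was left in the ovary without control replicate 1 or 3 or water deficit replicate 2 or 3, and in the stigma 0 of 2 without control replicate 1 or 3 or water deficit replicate 3 and 1 of 2 without control replicate 2 or water deficit replicate 1.

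**Figure D5:**
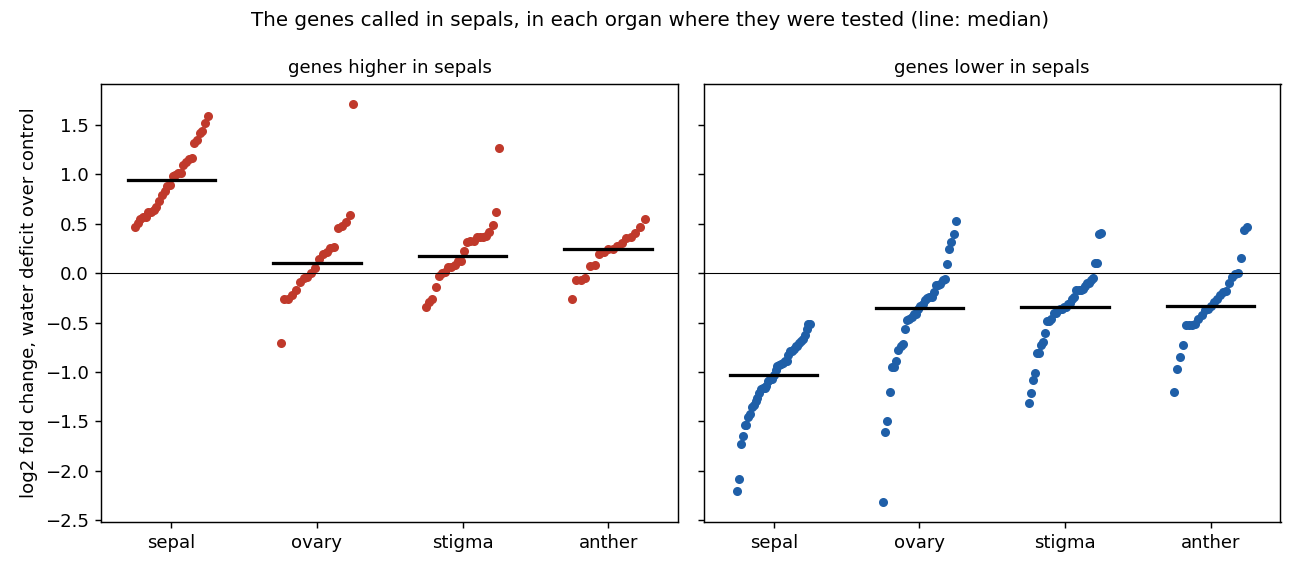
Log2 fold change on log2(FPKM + 1), water deficit over control, of the 28 genes higher (left) and the 41 genes lower (right) in sepals, in each organ where they were tested; each dot is a gene and the line is the median. The sepal values chose the genes, and the medians in the other organs lie between 0.10 and 0.24 on the left and between -0.33 and -0.35 on the right.

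The level of the called genes was also set side by side across organs. With organ means taken over the 12 libraries of each organ, 23 of the 28 higher genes (82.1%) and 21 of the 41 lower genes (51.2%) had their highest mean in the sepal, beside 34.8% of all tested genes. The genes were called in sepal libraries, where the share called rose with abundance, so the choice itself favours a high sepal level. The tables of the organs were normalised separately, and the difference in level was not tested. Genes called under water deficit in the ovary or stigma were also mostly in the same direction in sepals. Of 23 genes called higher in the ovary 16 were higher in sepals, and of 50 called lower there and tested in sepals 42 were lower. For the stigma these counts were 14 of 19 and 28 of 34. Over all tested genes, 41.3% were higher and 58.3% lower in sepals under water deficit. The median log2 fold changes in sepals were 0.10 and -0.37 for the ovary genes and 0.34 and -0.46 for the stigma genes.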

How the data were processed

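RNA of 48 libraries was sequenced as paired-end reads of 150 bases, from total RNA per the labels. The authors aligned reads with HISAT2 2.2.1, per the submitters' processing notes. For the counting tool, genome build and annotation: not given in the sources used. The authors deposited FPKM per gene in a separate file per organ, and nothing in the labels says how multi-mapping reads were treated.

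From the deposited FPKM, log2(FPKM + 1) of the 12 sepal libraries was fitted with limma 3.58.1 in R 4.3.3 (with package data.table, version 1.17.8), with robust moderation and a mean-variance trend, after keeping genes with a mean of at least 1 FPKM in at least 1 of 4 groups. Contrasts were two-sided, with Benjamini-Hochberg adjustment over all genes tested and a threshold of 0.05. Log2 fold changes understate the change of low genes. The fit was tested on simulated data. Other organs were fitted alike and separately. Alternatives covered the pseudocount (0.1, 0.5), filter, scaling, moderation, replicate block, libraries in the fit and each library left out. Named genes were the 2 highest and 2 lowest log2 fold changes among called genes with at least 5 FPKM in the higher group and no overlap. Others are said to be chosen after their values were seen. The members and lists were chosen with earlier results of these data known. Replicates are separate pools of flowers, per the labels. Figures used matplotlib 3.10.9 and pandas 2.3.3 under Python 3.11.15.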

Additional observations from a re-analysis of the deposited data

Results flagged for a closer look

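In limma 14 genes passed the threshold for the interaction of water deficit and temperature (adjusted p under 0.05). The value at high temperature was more positive for 3 and more negative for 11, and none was among the 69 called genes. The 2 most negative and the 2 most positive with a mean of at least 5 FPKM in some group are given, a choice made after the data were seen.

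GLYMA_19G008700 was at 12.9, 16.5 and 13.5 FPKM in water deficit sepals, against 8.94, 9.66 and 9.60 FPKM in control sepals. Under combined stress it was at 18.4, 25.4 and 21.2 FPKM, against 105.9, 73.8 and 61.0 FPKM under heat. The low-water libraries were above the well-watered ones at control temperature and below them at high temperature, and the interaction was -2.37 (SE 0.25, limma adjusted p = 0.0241). GLYMA_13G222100 was at 26.2, 30.0 and 40.6 FPKM in water deficit sepals, against 29.4, 21.9 and 17.0 FPKM in control sepals, which overlapped. It was at 4.32, 2.38 and 3.22 FPKM under combined stress, against 13.8, 13.4 and 15.8 FPKM under heat, with an interaction of -2.35 (SE 0.30, limma adjusted p = 0.0337).

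GLYMA_14G063800 was at 0.435 FPKM or less in all 6 libraries at control temperature. It was at 184.5, 255.3 and 185.1 FPKM under combined stress, against 64.5, 43.8 and 42.5 FPKM under heat (interaction 2.04, SE 0.28, limma adjusted p = 0.0337). GLYMA_07G139400 was likewise under 1 FPKM at control temperature and at 13.1, 21.0 and 15.1 FPKM under combined stress, against 2.59, 2.48 and 1.39 FPKM under heat (interaction 2.65, SE 0.38, limma adjusted p = 0.0441). GLYMA_14G063800 and GLYMA_07G139400 passed the filter through the hot groups alone, so no water response could be measured at control temperature. Their interactions mostly repeat the log2 fold changes of combined stress over heat, 2.038 and 2.465. Without control replicate 2 all 4 lost the call (limma adjusted p between 0.0502 and 0.0946), and so they did without water deficit replicate 2 (0.0619 to 0.117). GLYMA_13G222100, GLYMA_07G139400 and GLYMA_14G063800 also lost it without water deficit replicate 1, GLYMA_13G222100 and GLYMA_14G063800 without water deficit replicate 3, GLYMA_07G139400 and GLYMA_14G063800 without control replicate 3, and GLYMA_07G139400 without control replicate 1 (all 0.0541 to 0.0958).

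In 2 of the called genes, named after their values were seen, every water deficit library lay below every control library in the sepal and above every control library in another organ. This was 1 of the 34 lower genes tested in the ovary and 1 of the 36 tested in the stigma, where 6.49% and 7.67% of all tested genes were higher without overlap. The difference between organs was not tested. GLYMA_11G049700 was at 4.31, 5.69 and 5.25 FPKM in water deficit sepals, against 10.0, 8.94 and 8.99 FPKM in control sepals (log2 fold change -0.77), and at 2.66 ± 0.245 FPKM under water deficit in ovaries, against 1.797 ± 0.445 FPKM in control ovaries (SD, n = 3 each; 0.40, limma adjusted p = 0.56). GLYMA_08G321100 was at 37.8, 48.1 and 44.3 FPKM in water deficit sepals, against 104.0, 77.8 and 70.6 FPKM in control sepals (log2 fold change -0.93), and at 3.78 ± 0.142 FPKM under water deficit in stigmas, against 2.62 ± 0.418 FPKM in control stigmas (SD, n = 3 each; 0.41, limma adjusted p = 0.538). The sepal calls of GLYMA_11G049700 and GLYMA_08G321100 were lost without control replicate 2 or any water deficit library (limma adjusted p between 0.0596 and 0.141), and that of GLYMA_11G049700 without control replicate 3 (0.0717).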

How the results depend on the processing

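The number of called genes depended strongly on the processing, and the cause was not tested. With no filter on low values limma called 29 genes (8 higher, 21 lower), with a filter of 5 FPKM 145 (59 and 86), with anther- and pistil-enriched genes left out and the libraries rescaled 120 (36 and 84), with plain moderation 30 (11 and 19), and with only the 6 libraries in the fit 6 (3 and 3). At an adjusted p under 0.1, an alternative added after seeing the data, it called 435 (191 and 244). Leaving out 1 library gave 12 to 294 genes, 2 to 119 higher and 9 to 175 lower. Without control replicate 3, with the filter also set without it, 14 were higher. Same-numbered water deficit and control libraries hardly deviated together (r = 0.011, 0.048 and 0.071 across genes), and differently numbered ones gave r between -0.080 and 0.038. With 3 libraries a group, these values can neither show nor exclude a pairing by number. The replicate block gave 19 calls (5 and 14).

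The 14 interaction calls became 4 with no filter, 0 with plain moderation and 0 with the replicate block, and 1 to 19 on leaving out 1 library. Of the called genes, those called in the ovary (3) were 1 with the replicate block and 1 to 4 on leaving out 1 library. Those called in the stigma (2) were 1 with no filter, with a filter of 5 FPKM, with plain moderation and with the replicate block, and 0 to 2 on leaving out 1 library. The 40 called under combined stress against heat stayed within 35 to 46 throughout.

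The anther-enriched share, water deficit minus control, was -0.549 percentage points and turned to 0.0729 without control replicate 3 (range on leaving out 1 library -0.91 to 0.0729). The pistil-enriched difference of -0.363 was -0.721 with 4-fold lists and -0.583 to -0.137 on leaving out 1 library. The sepal-enriched difference of 0.285 was 1.81 with 4-fold lists and turned to -0.137 without control replicate 3 (range -0.137 to 0.727). No gene named reversed its direction. GLYMA_16G162400, GLYMA_06G185300, GLYMA_10G236000 and GLYMA_15G073100 lost the call in 1, 11, 12 and 7 of 16 alternatives, and GLYMA_10G224300 in 0 of 16. Absolute depth is unknown, and 3 libraries a group limit what the comparison can detect.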
